A study of Homo sapiens with 18 samples.

Results

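TIAL1, TIA1, HNRNPD and ZFP36 encode proteins that bind AU-rich elements, short stretches of adenine and uracil that mark many mRNAs of cytokines, growth factors and immediate early genes. These 4 genes were chosen by name, with earlier results of these data known. All 4 were measured, each by 1 transcript cluster (the array's unit for a gene), among 14232 genes with a single symbol and 22011 transcript clusters in all. RNA came from U251-MG, an established human astrocytoma line grown in DMEM with fetal bovine serum, and was read on 18 exon arrays of Affymetrix. Arsenite (500 µM), which causes oxidative stress, or DMSO was given for 30 min before harvest. RNA was taken from input, or from RNA immunoprecipitates (RIPs) with an antibody to G3BP1 or to TIAR, the protein of TIAL1, which the labels spell TIAL. The 6 groups were therefore unstressed (DMSO) and stressed (arsenite) input, TIAR RIP and G3BP1 RIP, with 3 labelled biological replicates in each. All values come from 1 cell line, no RIP with a control antibody was analysed here, and the labels do not say how the replicate cultures were made.

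AU-rich element binders act on the mRNAs they hold in different ways. TIA1 and TIAR silence translation and help to build stress granules, the cytoplasmic assemblies of mRNA and protein that form when translation initiation stops. AUF1, the protein of HNRNPD, and tristetraprolin, the protein of ZFP36, are known for directing mRNA decay, and tristetraprolin does so by recruiting the CCR4-NOT deadenylase. Tristetraprolin is itself controlled by the stress kinases p38 and MK2 and by 14-3-3 proteins. Several of these genes are known to be regulated through their own mRNAs. The arrays measured the mRNAs of these genes and not their proteins.

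The values are log2 signals after robust multi-array averaging (RMA), and differences are on the same log2 scale. A RIP value gives the share of an mRNA among the RNA on that array and not how much RNA the antibody recovered. In a bulk lysate, fewer cells that hold an mRNA and less of it per cell cannot be told apart. Medians of the 18 arrays lay between 7.73 and 8.07, and mean correlations with arrays of the same group lay between 0.980 and 0.995. Stressed input replicate 1 and unstressed G3BP1 RIP replicate 3 had the lowest such correlations (0.9802 and 0.9799) and low upper quartiles (9.17 and 9.45). Of the astrocyte and glioma markers in unstressed input, VIM (12.95), CD44 (11.71), SOX9 (10.36) and TNC (10.27) gave high signals and GFAP 8.45, while S100B (5.20) and AQP4 (4.78) were low. The leukocyte marker PTPRC (3.61) and the epithelial marker EPCAM (3.47) were low too, while the keratin genes KRT8 (11.96) and KRT18 (10.92) were not. Markers of other cell types were mixed as well. The myeloid marker CD68 gave 9.26 and CD14 7.70, and the neuron markers SYT1 8.83, GAD1 8.80 and SNAP25 6.64. The oligodendrocyte markers CNP and MOG gave 11.45 and 6.34. The mean over 6 epithelial markers ran from 8.15 to 8.56 in input and the G3BP1 RIP and from 7.64 to 7.91 in the TIAR RIP, and its part in the TIAR RIP results was not tested. The antibodies bind proteins, so no mRNA value here checks which protein a RIP recovered.

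TIAL1 mRNA, which encodes TIAR (transcript cluster 3309629), was lower in the TIAR RIP than in input. In unstressed input the 3 arrays gave 10.34, 10.18 and 10.24 (10.25 ± 0.08, SD, n = 3), and in stressed input 9.76, 10.21 and 10.16 (10.04 ± 0.25). In the TIAR RIP they gave 9.57, 9.31 and 9.38 without stress (9.42 ± 0.14) and 9.35, 9.26 and 9.33 with stress (9.31 ± 0.05). All 6 TIAR RIP arrays lay below all 6 input arrays. In the G3BP1 RIP the values were 10.19, 10.00 and 9.50 without stress (9.90 ± 0.36) and 10.00, 9.81 and 9.90 with stress (9.90 ± 0.09). Their means lay between those of input and the TIAR RIP, and unstressed replicate 3, the array with the low correlation, was the lowest of them. The groups ran from unstressed input through stressed input, stressed G3BP1 RIP, unstressed G3BP1 RIP and unstressed TIAR RIP to stressed TIAR RIP, and every pair of neighbours in this order overlapped.

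TIA1 (transcript cluster 2558511), which encodes the closest relative of TIAR, went the other way and was highest in the TIAR RIP. The stressed TIAR RIP gave 11.58, 11.23 and 11.48 (11.43 ± 0.18, SD, n = 3) and the unstressed TIAR RIP 11.08, 10.98 and 10.65 (10.90 ± 0.22). All 6 lay above every array of the other 4 groups. Unstressed input gave 10.03, 10.04 and 10.02 (10.03 ± 0.01) and stressed input 9.78, 10.57 and 10.33 (10.23 ± 0.41). The G3BP1 RIP gave 10.62, 10.46 and 9.90 without stress (10.33 ± 0.38) and 10.22, 10.27 and 9.93 with stress (10.14 ± 0.18). Stressed input replicate 1 and unstressed G3BP1 RIP replicate 3 were the lowest arrays of all for this mRNA. In the order of group means, stressed TIAR RIP and unstressed TIAR RIP did not overlap, nor did unstressed TIAR RIP and unstressed G3BP1 RIP, while the lower 4 groups overlapped with their neighbours.

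HNRNPD (transcript cluster 2775463), which encodes the 4 AUF1 isoforms, stood out through the unstressed G3BP1 RIP. Its arrays there gave 13.42, 13.40 and 13.26 (13.36 ± 0.09, SD, n = 3), against 12.23, 12.23 and 12.13 with stress (12.20 ± 0.05). Input gave 12.33, 12.40 and 12.44 without stress (12.39 ± 0.05) and 12.06, 12.28 and 12.31 with stress (12.22 ± 0.14). The unstressed G3BP1 RIP thus lay above every other array, and the stressed one overlapped with stressed input. The TIAR RIP was lowest, with 11.36, 11.34 and 11.44 without stress (11.38 ± 0.05) and 11.63, 11.50 and 11.97 with stress (11.70 ± 0.24). Of the neighbours in the order of means, only stressed input and stressed G3BP1 RIP overlapped.

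ZFP36 (transcript cluster 3832978), which encodes tristetraprolin, had nearly the opposite order. The TIAR RIP was highest, with 9.64, 9.77 and 9.60 with stress (9.67 ± 0.09, SD, n = 3) and 9.49, 9.49 and 9.70 without (9.56 ± 0.12). Input gave 8.91, 9.09 and 8.91 without stress (8.97 ± 0.11) and 9.25, 9.31 and 9.33 with stress (9.30 ± 0.04). The G3BP1 RIP gave 8.20, 8.42 and 8.57 without stress (8.40 ± 0.19) and 9.11, 9.37 and 9.07 with stress (9.19 ± 0.16). The unstressed G3BP1 RIP lay below every other array. All 6 TIAR RIP arrays lay above all input and G3BP1 RIP arrays. The other neighbours in the order overlapped, apart from unstressed input and unstressed G3BP1 RIP.

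**Figure D1:**
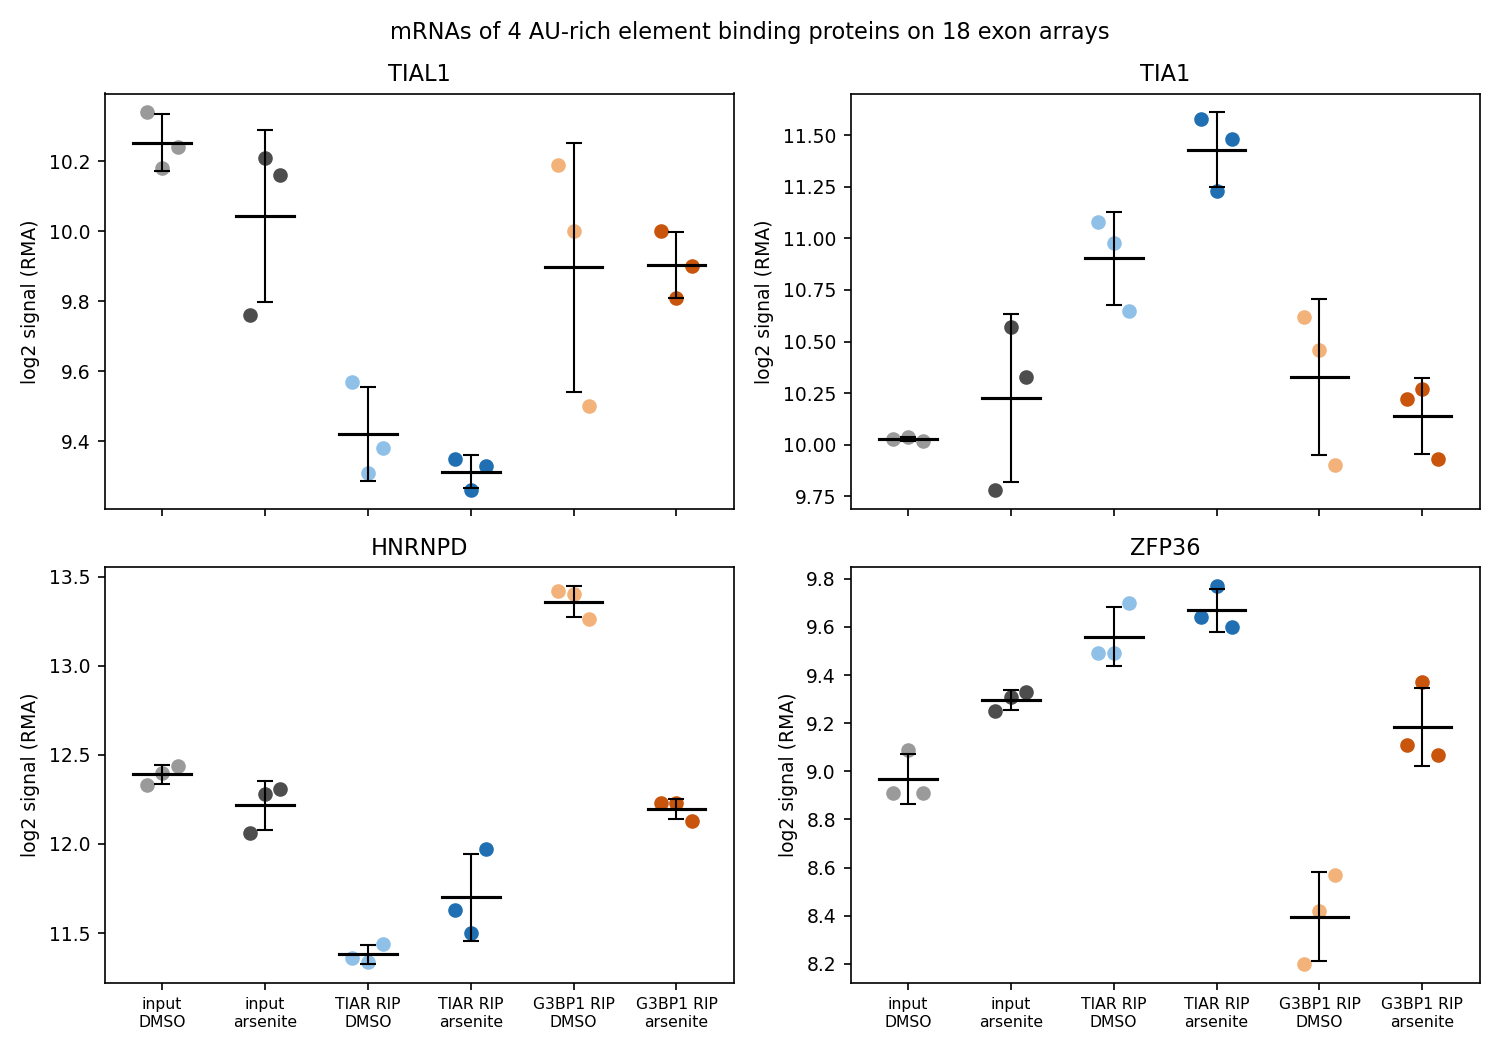
The log2 RMA signal of TIAL1, TIA1, HNRNPD and ZFP36 on each of 18 arrays (points), with the group mean (line) and SD (bars, n = 3), for input, TIAR RIP and G3BP1 RIP with DMSO or arsenite. TIAL1 is lowest and TIA1 highest in the TIAR RIP, HNRNPD is highest in the unstressed G3BP1 RIP (13.36 ± 0.09), and ZFP36 is lowest there (8.40 ± 0.19). The vertical axes do not start at 0 and differ between panels.

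ZFP36 is known as an immediate early gene, and the sequence in front of its start is shown here. In input its values were higher on all 3 stressed arrays than on all 3 unstressed ones, but the change was not called (adjusted p = 0.0573, limma). Stressed and unstressed input arrays did not overlap for 34.3% of all transcript clusters. Any link of the sequence to these values was not tested. The stretch holds the 250 bases before the annotated start on the plus strand, chr19:39406597-39406846 of GRCh38.p14 (RefSeq), and capitals mark TATAA and the GC box GGGCGG on either strand.

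ZFP36 upstream: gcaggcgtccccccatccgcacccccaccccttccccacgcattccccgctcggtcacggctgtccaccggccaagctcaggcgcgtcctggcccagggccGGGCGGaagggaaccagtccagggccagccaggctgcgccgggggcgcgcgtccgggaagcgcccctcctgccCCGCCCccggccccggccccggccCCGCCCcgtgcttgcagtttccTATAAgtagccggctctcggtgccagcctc

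TATAA begins at -30 from the start, and GC boxes at -149, -76 and -52. Windows of 300 bases around RefSeq starts (250 before to 50 after) were found for all 4 genes, with 2 starts for TIA1, and were searched on both strands. Of 35116 such windows, 20.4% held TATAA and 45.0% held GGGCGG. The EGR1 motif GCGNGGGCG (9.43% of windows, and it can overlap a GC box) and the AP-1 motif TGANTCA (7.71%) were in none of the windows of the 4 genes. The CArG box, the motif of serum response factor (1.29% of windows), was in the HNRNPD window at 5 bases past the start and in no window of the other 3. HNRNPD also held TATAA at -126 and a GC box at -109. The TIA1 windows held TATAA at -148 and a GC box at -207 from one start, and GC boxes at -86 and 41 from the other, and the TIAL1 window held no match to any of these motifs. These matches describe letters in a window and say nothing on whether a factor bound there.

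In input, arsenite changed none of the 4 mRNAs past the threshold (adjusted p under 0.05 in limma, Benjamini-Hochberg over all 22011 transcript clusters), where 13.7% of transcript clusters were called. ZFP36 came nearest, with a difference of 0.32 ± 0.11 (SE, adjusted p = 0.0573, limma). It was called under 7 of 10 other settings, at 0.32 to 0.56. HNRNPD had -0.17 ± 0.11 (adjusted p = 0.335), TIAL1 -0.21 ± 0.15 (adjusted p = 0.427) and TIA1 0.20 ± 0.20 (adjusted p = 0.601). At an unadjusted p under 0.05 (limma), ZFP36 was the single one of the 4. HNRNPD and ZFP36 were the 2 of 4 whose stressed and unstressed arrays did not overlap, which held for 34.3% of all transcript clusters. Stressed input replicate 1 was the lowest array of its group for each of the 4 mRNAs. Without it and unstressed G3BP1 RIP replicate 3, the TIAL1 value was -0.07 ± 0.09 and the HNRNPD value -0.09 ± 0.10. TIA1 then had 0.42 ± 0.14 (adjusted p = 0.0555, limma) and ZFP36 0.35 ± 0.11 (adjusted p = 0.0355, limma).

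In the TIAR RIP, arsenite again changed none of the 4 past the threshold, where 11.9% of transcript clusters were called. TIA1 had the largest value, 0.53 ± 0.20 (SE, adjusted p = 0.124, limma), and its 3 stressed arrays lay above its 3 unstressed ones. It was called under 5 of 10 other settings. Without the 2 arrays of low correlation, neither of which is a TIAR RIP array, its value stayed at 0.53 and only its error fell, to 0.13 (adjusted p = 0.00821, limma). With those arrays left out, the transcript clusters called in this comparison rose from 2609 to 5057. HNRNPD had 0.32 ± 0.11 (adjusted p = 0.0699), also without overlap, and was called under 6 of 10 other settings. TIAL1 (-0.11 ± 0.15) and ZFP36 (0.11 ± 0.11) overlapped. At an unadjusted p under 0.05 (limma), both TIA1 and HNRNPD would pass. Arrays without overlap, as in 2 of the 4 genes, were found for 31.4% of all transcript clusters.

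In the G3BP1 RIP, HNRNPD fell and ZFP36 rose with arsenite, 2 of 4 members where 14.5% of transcript clusters were called. HNRNPD fell 2.24-fold (difference -1.16 ± 0.11, SE, adjusted p = 9.97e-06, limma), lower on 3 of 3 arrays, and only 0.254% of transcript clusters had a lower value. ZFP36 rose 1.73-fold (0.79 ± 0.11, adjusted p = 0.000175), higher on 3 of 3 arrays, and 96.8% of transcript clusters had a lower value. For both genes the groups did not overlap, as for 26.7% of all transcript clusters. TIAL1 had 0.01 ± 0.15 and TIA1 -0.19 ± 0.20, and their groups overlapped. Without the 2 arrays of low correlation, HNRNPD had -1.21 and ZFP36 0.88, TIAL1 -0.19 ± 0.09 (adjusted p = 0.158) and TIA1 -0.40.

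**Figure D2:**
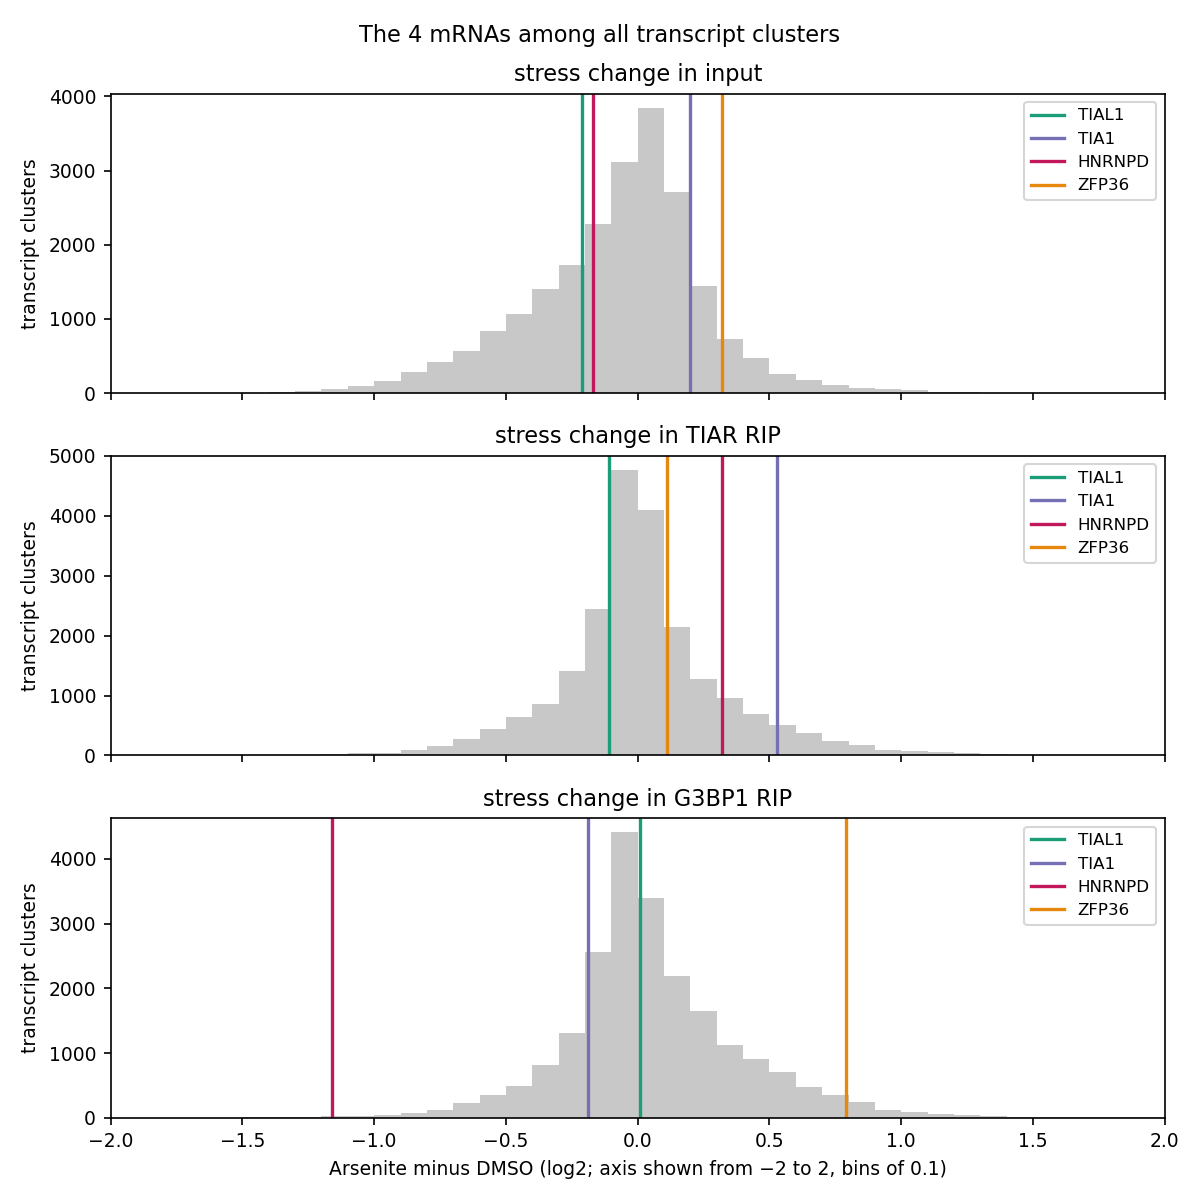
Number of transcript clusters (vertical axis, bins of 0.1) by their arsenite minus DMSO log2 difference (horizontal axis, shown from -2 to 2) in input, the TIAR RIP and the G3BP1 RIP, with coloured lines at TIAL1, TIA1, HNRNPD and ZFP36. The 4 lines lie between -0.21 and 0.53 in input and the TIAR RIP, and in the G3BP1 RIP HNRNPD (-1.16) lies far to the left and ZFP36 (0.79) to the right.

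Against input, the TIAR RIP differed for all 4 mRNAs both without stress (40.6% of transcript clusters called) and with stress (43.8%). TIA1 and ZFP36 were higher, and TIAL1 and HNRNPD lower. TIA1 was 1.83-fold higher without stress (0.87 ± 0.20, SE, adjusted p = 0.00255, limma), and ZFP36 1.51-fold (0.59 ± 0.11, adjusted p = 0.000327). With stress ZFP36 was 0.37 ± 0.11 higher (adjusted p = 0.0102). TIAL1 was 1.78-fold lower without stress (-0.83 ± 0.15, adjusted p = 0.000364) and HNRNPD 2.01-fold lower (-1.01 ± 0.11, adjusted p = 1.69e-06). With stress HNRNPD was 1.43-fold lower (-0.52 ± 0.11, adjusted p = 0.000938). The arrays of the 2 groups did not overlap for any of the 4 genes in either state, which held for 57.8% of transcript clusters without stress and 51.9% with stress. Quantile normalization and cyclic loess ended the call of ZFP36 with stress (0.30 and 0.31).

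Against input, the G3BP1 RIP differed for HNRNPD and ZFP36 without stress, 2 of 4 members where 39.8% of transcript clusters were called. HNRNPD was 1.96-fold higher (0.97 ± 0.11, SE, adjusted p = 3.22e-06, limma) and ZFP36 1.49-fold lower (-0.57 ± 0.11, adjusted p = 0.000448). TIAL1 had -0.36 ± 0.15 (adjusted p = 0.0795) and TIA1 0.30 ± 0.20 (adjusted p = 0.288). Without the 2 arrays of low correlation TIA1 was called (0.51 ± 0.14, adjusted p = 0.00918, limma) and TIAL1 was -0.16, while median centring, quantile normalization and cyclic loess gave TIAL1 a call (-0.37, -0.46 and -0.45). The arrays did not overlap for HNRNPD and ZFP36, as for 46.9% of all transcript clusters, and overlapped for TIAL1 and TIA1. With stress 0 of 4 were called, where 44.4% of transcript clusters were. HNRNPD had -0.02 ± 0.11, ZFP36 -0.11 ± 0.11, TIA1 -0.08 ± 0.20 and TIAL1 -0.14 ± 0.15, with unadjusted p-values from 0.322 to 0.846, and all 4 overlapped with input, where 53.1% of transcript clusters did not. These 4 values depend on the scaling. After quantile normalization TIAL1 (-0.55), TIA1 (-0.47) and ZFP36 (-0.53) were called lower, and after cyclic loess too (-0.52, -0.39 and -0.50).

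Set against each other, the RIPs differed for all 4 mRNAs without stress (46.8% of transcript clusters called) and with stress (44.3%). TIA1 and ZFP36 were higher in the TIAR RIP, and TIAL1 and HNRNPD lower in it (27.5% of transcript clusters without stress, 28.7% with). The HNRNPD difference was 3.94-fold without stress (-1.98 ± 0.11, SE, adjusted p = 6.3e-10, limma) and 1.41-fold with stress (-0.50 ± 0.11, adjusted p = 0.00112). ZFP36 was 2.24-fold higher in the TIAR RIP without stress (1.16 ± 0.11, adjusted p = 2.05e-07) and 1.40-fold with stress (0.48 ± 0.11, adjusted p = 0.00149). TIA1 had 0.58 ± 0.20 without stress (adjusted p = 0.029) and 1.29 ± 0.20 with stress (adjusted p = 7.43e-05). TIAL1 had -0.48 ± 0.15 (adjusted p = 0.017) and -0.59 ± 0.15 (adjusted p = 0.00458). Under other settings all 4 genes kept their sign, and sizes moved. TIAL1 was -0.22 in both states after quantile normalization and -0.75 with array weights without stress. TIA1 without stress was 0.36 without both arrays of low correlation. With stress, HNRNPD was -0.27 after median centring and ZFP36 0.83 after quantile normalization. Without stress, TIAL1 was the exception to arrays without overlap, which 51.8% of all transcript clusters had, and with stress none of the 4 overlapped (58.2%). In unstressed cells the TIAL1 call was lost without unstressed TIAR RIP replicate 2 (-0.42) or unstressed G3BP1 RIP replicate 1 (-0.33) or 2 (-0.43). The TIA1 call was lost without unstressed TIAR RIP replicate 1 (0.49) or 2 (0.54) or unstressed G3BP1 RIP replicate 3 (0.36).

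**Figure D3:**
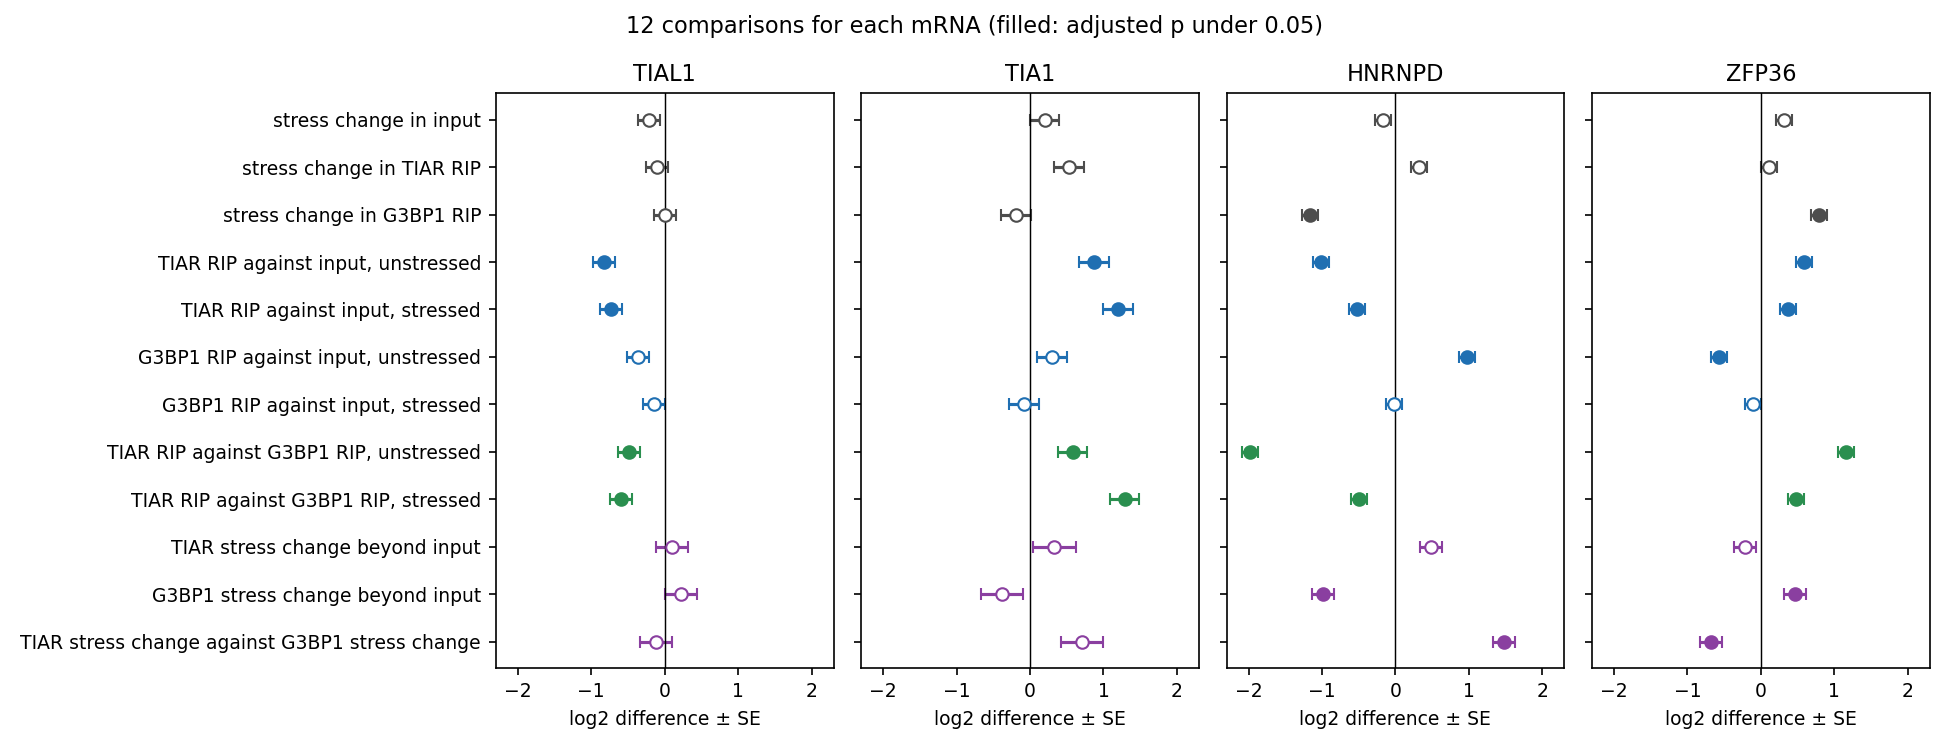
Log2 difference ± SE (horizontal axis) of TIAL1, TIA1, HNRNPD and ZFP36 in 12 comparisons (rows), with filled points at an adjusted p under 0.05. Among the stress changes only HNRNPD and ZFP36 in the G3BP1 RIP are filled (-1.16 and 0.79), while all 4 genes are filled where the TIAR RIP is set against input or the G3BP1 RIP.

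Differences between stress changes were called for HNRNPD and ZFP36 and not for TIAL1 and TIA1. HNRNPD changed with arsenite in the G3BP1 RIP beyond its change in input (-0.99 ± 0.15, SE, adjusted p = 0.00044, limma, 16.9% of transcript clusters called). It also changed otherwise in the TIAR RIP than in the G3BP1 RIP (1.48 ± 0.15, adjusted p = 2.64e-05, 13.6% called). ZFP36 had 0.46 ± 0.15 in the G3BP1 RIP beyond input (adjusted p = 0.0475) and -0.68 ± 0.15 in TIAR against G3BP1 (adjusted p = 0.00699). The first of these was lost under 5 of 10 other settings (0.07 after quantile normalization) and under 15 of 18 omissions of 1 array, being kept without unstressed TIAR RIP replicate 3, stressed G3BP1 RIP replicate 3 or unstressed G3BP1 RIP replicate 3. The second was lost after quantile normalization (-0.52) and cyclic loess (-0.53). TIA1 had 0.71 ± 0.29 in TIAR against G3BP1 (adjusted p = 0.131) and 0.92 ± 0.19 without the 2 arrays of low correlation (adjusted p = 0.00299, limma). Its G3BP1 stress change beyond input was -0.38 ± 0.29, and -0.82 ± 0.20 without those arrays (adjusted p = 0.0105, limma), a call also made under 3 other settings. TIAL1 had -0.12 ± 0.22 (adjusted p = 0.858). For the TIAR RIP beyond input, 0 of 4 were called, where 0.654% of transcript clusters were (0.604% higher), with unadjusted p-values of 0.00538 for HNRNPD and 0.17 to 0.65 for the others.

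Over the 18 arrays, HNRNPD and ZFP36 correlated at r = -0.93, TIAL1 and TIA1 at -0.64, and TIA1 and ZFP36 at 0.54. TIAL1 correlated with HNRNPD at 0.58 and with ZFP36 at -0.60, and TIA1 with HNRNPD at -0.50. These describe arrays that share 6 groups and their scaling. Among 7756 genes brighter than the median transcript cluster, the patterns most like TIAL1 were those of RMP24 (r = 0.972), TIMM21, a gene of mitochondrial protein import (0.972), and TRIAP1 (0.967). The most like TIA1 were SYPL1 (0.973), the lamin B receptor gene LBR (0.969) and SLC38A9, a lysosomal arginine sensor gene (0.968). For HNRNPD they were PRKAG1, which encodes a subunit of AMP-activated kinase (0.953), the centromere chaperone gene HJURP (0.945) and MRFAP1L1 (0.943). For ZFP36 they were the nucleoside transporter gene SLC29A1 (0.931), the surface glycoprotein gene THY1 (0.915) and the tapasin gene TAPBP (0.914). ZFP36 thus had the least similar nearest pattern of the 4.

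Of 24 other AU-rich element binders that were listed, 19 were measured. With arsenite in the G3BP1 RIP, 2 rose (10.4% of transcript clusters did) and 3 fell (4.08%), at a list median of -0.04 beside 0.01 over all transcript clusters. Both that rose are paralogs of ZFP36 that share its zinc fingers, ZFP36L1 (0.70 ± 0.10, SE, adjusted p = 0.000337, limma) and ZFP36L2 (0.38 ± 0.07, adjusted p = 0.00261). Those that fell were SYNCRIP (-0.54 ± 0.10) and HNRNPAB (-0.49 ± 0.08), genes of hnRNP family proteins, and HNRNPA2B1 (-0.43 ± 0.12), which encodes hnRNP A2 and B1. HNRNPDL, the closest paralog of HNRNPD, had -0.33 ± 0.14 and was not called. Without the 2 arrays of low correlation, 2 rose and 6 fell, and fitted on the compared groups alone or under the other settings the counts ran from 0 to 3 and from 0 to 7.

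In the TIAR RIP, 2 of the 19 rose with arsenite (6.15% of transcript clusters) and 4 fell (5.71%). HNRNPA2B1 rose (0.94 ± 0.12, SE, adjusted p = 0.000174, limma), with PTBP1, the gene of polypyrimidine tract binding protein (0.31 ± 0.06). RC3H2, which encodes roquin 2 (1.99-fold), CELF2 (-0.64 ± 0.10), ZFP36L2 (-0.48 ± 0.07) and KHSRP, which encodes the decay factor KSRP (-0.25 ± 0.07), fell. In input, 3 rose (2.52%) and 4 fell (11.2%). RC3H2 (-1.36 ± 0.15), CELF2 (-0.61 ± 0.10), ZFP36L2 (-0.48 ± 0.07) and KHSRP (-0.33 ± 0.07) fell there. YBX1 rose in input (0.88 ± 0.27), with PTBP1 (0.26 ± 0.06) and the neuronal Hu gene ELAVL2 (0.32 ± 0.10). These 3 became 1 in 10 of 18 omissions of 1 array and without both arrays of low correlation, and ran from 0 to 4 over the other settings. In input, KHSRP and ELAVL2 each kept their call in 1 of 3 rescalings.

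The signed stress change (stressed minus unstressed) differed between the RIPs for 8 of the 19. It was higher in the TIAR RIP for 4 (5.05% of transcript clusters), HNRNPA2B1 (1.37 ± 0.18, SE, adjusted p = 0.000155, limma), FXR1, a paralog of FMR1 (0.77 ± 0.24), SYNCRIP (0.66 ± 0.14) and PTBP1 (0.45 ± 0.09). It was lower in the TIAR RIP for the other 4 (8.55%), RC3H2 (-1.15 ± 0.21), CELF2 (-0.90 ± 0.14), ZFP36L2 (-0.86 ± 0.10) and ZFP36L1 (-0.83 ± 0.15). RC3H2 and CELF2 fell in the TIAR RIP and had 0.15 ± 0.15 and 0.25 ± 0.10 in the G3BP1 RIP, without a call, while SYNCRIP fell in the G3BP1 RIP and had 0.12 ± 0.10 in the TIAR RIP. HNRNPD stood on the side of the first 4 and ZFP36 on the side of the second. Beyond the change of input, HNRNPA2B1 was the 1 binder of the 19 called in the TIAR RIP (0.89 ± 0.18, adjusted p = 0.0371, limma). There 0.604% of transcript clusters were called higher. This count of 1 fell to 0 in some other settings and some omissions of 1 array. In the G3BP1 RIP beyond input, 5 of the 19 were higher (14.3% of transcript clusters) and 3 lower (2.65%). Among them were RC3H2 (1.51) and YBX1 (-1.28). The 3 ran from 2 to 7 over the other settings.

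**Figure D4:**
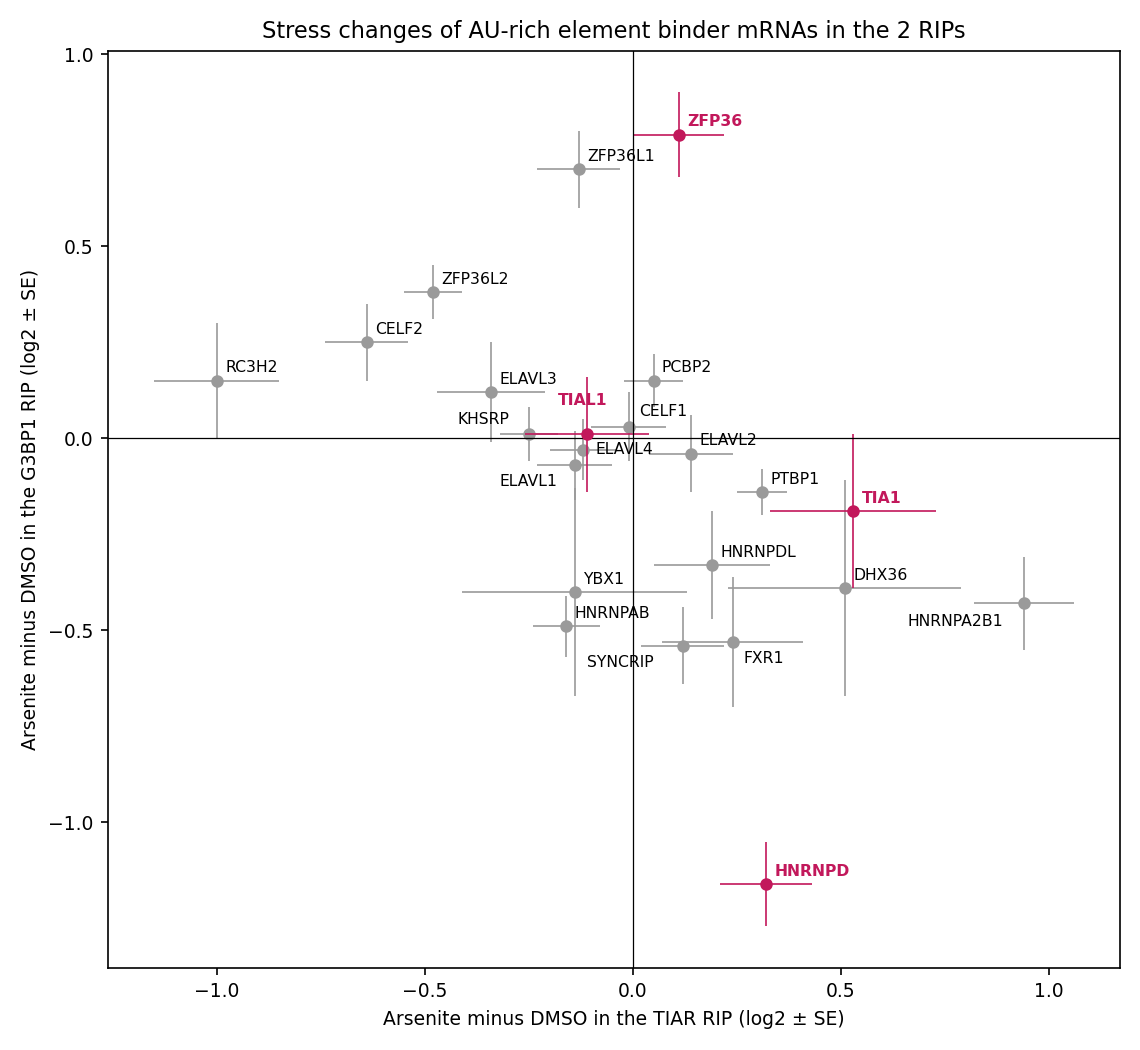
Arsenite minus DMSO in the TIAR RIP (horizontal axis) against the same in the G3BP1 RIP (vertical axis), log2 ± SE, for TIAL1, TIA1, HNRNPD and ZFP36 (pink) and 19 other AU-rich element binders (grey). ZFP36 (0.79) and ZFP36L1 (0.70) have the highest values in the G3BP1 RIP, HNRNPD the lowest (-1.16), and HNRNPA2B1 the highest in the TIAR RIP (0.94). The 2 axes share no arrays.

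Against input, 8 of the 19 other binders were higher in the unstressed TIAR RIP (16.8% of transcript clusters) and 3 lower (23.8%). Under stress 9 were higher (20.3%) and 5 lower (23.5%). The ZFP36 paralogs were higher as ZFP36 was, ZFP36L1 by 1.13 ± 0.10 (SE) and ZFP36L2 by 0.83 ± 0.07 without stress, and so were CELF2 (1.21 ± 0.10) and RC3H2, which stood among the highest with stress (1.65 ± 0.15). The 3 that were lower without stress were HNRNPA2B1 (-1.82 ± 0.12), HNRNPDL (-0.61 ± 0.14) and HNRNPAB (-0.59 ± 0.08), hnRNP genes as HNRNPD is. This did not hold for all hnRNP family genes of the list, since SYNCRIP was not among the 3. In the G3BP1 RIP, 7 were higher than in input without stress (20.7%) and 3 lower (19.2%), and 10 higher (29.3%) and 3 lower (15.2%) with stress. PTBP1 (0.63 ± 0.06), ELAVL1, which encodes the stabilising factor HuR (0.79 ± 0.09), SYNCRIP (0.75 ± 0.10) and HNRNPAB (0.51 ± 0.08) were among those higher without stress. RC3H2 (1.22) and ZFP36L2 (1.05) were among those higher in the stressed G3BP1 RIP, so their rise over input was not particular to the TIAR RIP. ZFP36 itself was not called there (-0.11 ± 0.11).

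Of 15 listed genes of the CCR4-NOT deadenylase and its partners, through which tristetraprolin shortens poly(A) tails, 10 were measured. In the TIAR RIP 6 were higher than in input without stress (16.8% of transcript clusters) and 7 with stress (20.3%), and 0 were lower in either (23.8% and 23.5%), also at an unadjusted p under 0.05 (limma). The list medians were 0.34 and 0.66, beside -0.05 and -0.08 over all transcript clusters. CNOT4, a ubiquitin ligase of the complex, was higher by 1.41 ± 0.15 (SE) and 1.74 ± 0.15, and CNOT8, a catalytic subunit, by 0.81 ± 0.13 and 0.97 ± 0.13. Against the G3BP1 RIP, 9 of 10 were higher in the TIAR RIP in unstressed cells (19.3% of transcript clusters) and 9 of 10 in stressed cells (15.6%). The catalytic subunit gene CNOT7 had 2.64 ± 0.25 without stress and was lower in the unstressed G3BP1 RIP than in input (-2.34 ± 0.25). With arsenite CNOT6 was called lower in input (-0.86 ± 0.27, adjusted p = 0.0484, limma), where 11.2% of transcript clusters fell. This count of 1 ran from 0 to 4 in omissions of 1 array. TOB2, an adaptor gene, was called lower in the TIAR RIP (-0.26 ± 0.08, called in 0 of 3 rescalings), where 5.71% fell. In the G3BP1 RIP 0 were called. At an unadjusted p under 0.05 (limma), 5 were lower and 0 higher in input, and 2 lower and 1 higher in the TIAR RIP. In the G3BP1 RIP 1 was higher and 1 lower at that threshold. The list median in input was -0.22, beside -0.03 over all transcript clusters.

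Of 18 listed genes that act on tristetraprolin (p38 and MK2 kinases, their upstream kinases and phosphatases, protein phosphatase 2A and 14-3-3 proteins), 14 were measured. In the G3BP1 RIP 4 rose with arsenite (10.4% of transcript clusters) and 1 fell (4.08%). MAPKAPK2, which encodes MK2 (0.64 ± 0.11, SE, adjusted p = 0.00135, limma), DUSP1, a phosphatase gene that turns p38 off (0.67 ± 0.13), MAPKAPK3 (0.35 ± 0.10) and the 14-3-3 gene YWHAB (0.29 ± 0.09) rose, and YWHAG fell (-0.43 ± 0.09). YWHAB kept its call in 1 of 3 rescalings. The 4 became 2 without unstressed G3BP1 RIP replicate 3 or stressed G3BP1 RIP replicate 1 or 2, and ran from 1 to 5 over the other settings, and the 1 became 3 without unstressed G3BP1 RIP replicate 3. In input 1 rose (2.52%) and 5 fell (11.2%), and the 5 became 2 without stressed input replicate 1 and 3 without unstressed input replicate 1 or 2. There DUSP1 rose (0.80 ± 0.13) and MAPKAPK2 (-0.56 ± 0.11), MAP2K3, the gene of a kinase that activates p38 (-0.66 ± 0.12), and MAPKAPK3 (-0.41 ± 0.10) were among those that fell. In the TIAR RIP, DUSP1 rose (0.41 ± 0.13, 6.15% of transcript clusters) and 3 fell (5.71%), MAP2K3 (-0.55 ± 0.12), MAPKAPK2 (-0.44 ± 0.11) and PPP2CB (-0.71 ± 0.22). The call of DUSP1 was lost in 13 of 18 omissions of 1 array, and the 3 became 1 without stressed TIAR RIP replicate 1 or 3 or unstressed TIAR RIP replicate 1. The stress change of MAPKAPK2 differed between the RIPs by -1.07 ± 0.16 (adjusted p = 0.000439), the same sign as for ZFP36.

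Of 36 listed mRNAs with AU-rich elements, classical targets of these binders, 32 were measured. Arsenite raised 7 and lowered 0 in input (2.52% and 11.2% of transcript clusters), raised 7 and lowered 4 in the TIAR RIP (6.15% and 5.71%), and raised 11 and lowered 0 in the G3BP1 RIP (10.4% and 4.08%). The 7 of the TIAR RIP became 3 without stressed TIAR RIP replicate 3, and 4 without stressed replicate 1 or any 1 of the 3 unstressed replicates of that RIP, and the 4 became 2 without stressed replicate 1 or unstressed replicate 1 or 3. At an unadjusted p under 0.05 (limma), 2 were lower in input and 0 in the G3BP1 RIP. Beside the known immediate early genes, PLAU, the urokinase gene, rose in the TIAR RIP (0.45 ± 0.08, SE, adjusted p = 0.00128, limma), while BCL2 (-0.45 ± 0.08), IL11 (-0.45 ± 0.12), CCND1 (-0.31 ± 0.06) and VEGFA (-0.29 ± 0.08) fell there. The signed stress change was lower in the TIAR RIP than in the G3BP1 RIP for 8 (8.55% of transcript clusters), as for ZFP36, and higher for 0 (5.05%; 1 at an unadjusted p under 0.05, limma). The cytokine genes IL11 (-1.24 ± 0.16, adjusted p = 0.000187) and LIF (-1.04 ± 0.14, adjusted p = 0.000222) and the transcription factor genes FOS (-1.47 ± 0.18) and EGR1 (-0.85 ± 0.13) were among them. Beyond the change of input, 5 rose in the G3BP1 RIP (14.3% of transcript clusters) and 0 fell (2.65%; 3 lower at an unadjusted p under 0.05), with IL11 at 0.92 ± 0.16 and IER3 at 0.42 ± 0.11.

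Against input, 8 of the 32 were higher and 5 lower in the unstressed TIAR RIP (16.8% and 23.8% of transcript clusters), and 5 higher and 9 lower in the stressed one (20.3% and 23.5%). MYC was higher in both (0.86 ± 0.08 and 0.75 ± 0.08, SE) and so was PTGS2, the cyclooxygenase 2 gene, in the stressed RIP (0.54 ± 0.09), while JUN (-0.53 ± 0.11 without stress) and IER3 (-0.46 ± 0.08 and -0.59 ± 0.08) were lower. In the G3BP1 RIP 6 were higher and 5 lower without stress (20.7% and 19.2%), and 13 higher and 4 lower with stress (29.3% and 15.2%). JUN was higher there (1.66 ± 0.11 and 1.27 ± 0.11), and so was MYC (0.60 and 0.61), whose rise over input was thus not particular to the TIAR RIP. The chemokine genes CXCL8 (-1.83 ± 0.18 and -1.56 ± 0.18) and CCL2 (-1.21 ± 0.10 and -0.78 ± 0.10) were lower in the G3BP1 RIP. The list median lay within 0.1 of that of all transcript clusters in both TIAR comparisons (-0.01 beside -0.05, and -0.07 beside -0.08), while in the stressed G3BP1 RIP it was 0.26 beside 0.03.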

How the data were processed

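RNA of 18 samples was measured on exon arrays. Per the submitters' processing notes, the authors made the deposited log2 values with RMA in Affymetrix Expression Console. The sources used here do not give the version, the probe-set level or whether normalisation was joint. Symbols come from the platform's annotation, where 14432 of 22011 transcript clusters (65.6%) had 1 symbol, 2408 several and 5171 none. The brightest transcript cluster stood for a gene, and 0 symbols were updated through RefSeq (GRCh38.p14).

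From these values 6 group means were fitted to all 18 arrays with limma 3.58.1 in R 4.3.3 (lmFit and eBayes, no filter, residual degrees of freedom 12, prior 2.61). The 12 comparisons used moderated two-sided tests with Benjamini-Hochberg adjustment over all 22011 transcript clusters within a comparison, called at an adjusted p under 0.05. Errors are SE of differences and SD of means (n = 3). Precision is limited by the number of arrays, and p-values measure the spread among labelled replicates. The fit was tested on simulated data.

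The genes and lists were chosen with earlier results of these data known. Named are the 4 genes, up to 4 called list members per direction and comparison by smallest p (groups not overlapping where 2 groups are compared), and the 3 genes most like each of the 4 genes. HNRNPDL in the G3BP1 RIP was named after its value was seen. Lists are described by counts, without a test. Alternatives were a replicate block, median centring, quantile normalization, cyclic loess, array weights, a fit of the compared groups only, a robust prior with an intensity trend, removal of the dimmest 25% or 50% of transcript clusters, and omission of arrays. The 2 arrays left out together were picked for their low correlation with their groups. Leaving them out tends to lower the errors, so p-values without them run low. A check by correlation found no clear pairing of samples by replicate number, and it cannot exclude pairing.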

Additional observations from a re-analysis of the deposited data

Results flagged for a closer look

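The values here are differences between the stress changes of 2 kinds of sample. Apart from those of TIA1 and the rescaled ones of TOB2, each passed the interaction test in limma at an adjusted p under 0.05. The genes that passed were taken up for a closer look because the effect of arsenite differed between those samples. Groups of 3 arrays were not tested for outlying arrays.

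HNRNPD is the member with the largest such differences. Its stress change in the G3BP1 RIP differed from that in input by -0.99 ± 0.15 (SE, adjusted p = 0.00044, limma), and its stress change in the TIAR RIP differed from that in the G3BP1 RIP by 1.48 ± 0.15 (adjusted p = 2.64e-05). For ZFP36 the same differences were 0.46 ± 0.15 (adjusted p = 0.0475) and -0.68 ± 0.15 (adjusted p = 0.00699), with the opposite signs. The value of 0.46 lay near the threshold, and its call was lost in 15 of 18 omissions of 1 array. Neither difference was called for TIAL1 or TIA1. Without the 2 arrays of low correlation both were called for TIA1 (-0.82 ± 0.20, adjusted p = 0.0105, and 0.92 ± 0.19, adjusted p = 0.00299, limma).

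Among the other AU-rich element binders, the TIAR stress change was above the G3BP1 stress change for HNRNPA2B1 (1.37), FXR1 (0.77), SYNCRIP (0.66) and PTBP1 (0.45). FXR1 was near the threshold (adjusted p = 0.0482, limma). The TIAR stress change was below the G3BP1 stress change for RC3H2 (-1.15), CELF2 (-0.90), ZFP36L2 (-0.86) and ZFP36L1 (-0.83). The same difference was -1.47 for FOS, -1.24 for IL11, -1.04 for LIF and -0.85 for EGR1, all mRNAs with AU-rich elements. In the p38 pathway it was -1.07 for MAPKAPK2, -0.65 for MAP2K3 and -0.45 for MAPKAPK3, and for the deadenylase adaptor gene TOB2 it was -0.43. TOB2 lost its call after median centring (-0.39), quantile normalization (-0.33) and cyclic loess (-0.28).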

How the results depend on the processing

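Of 48 differences (4 genes in 12 comparisons), 25 kept their sign and their side of the threshold under all 10 other settings and all 18 omissions of 1 array, among them 19 of the 24 called ones. No called difference changed its sign in any of these. The mean of all transcript clusters of a gene gave no separate value, since each gene had 1. The numbers shared by replicates gave no clear sign of pairing, which does not exclude it. Over 45 pairs of same-numbered arrays, deviations from group means correlated at -0.41 to 0.42 (median 0.01), 13 pairs exceeded 0.1, and 6 of 18 arrays correlated best with their own number. The replicate block changed 0 of 48 calls, and moved, for instance, the error of TIAL1 in input from 0.15 to 0.16 at a value of -0.21.

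With array weights, TIAL1 G3BP1 RIP over input stressed (-0.27), TIA1 stress change in input (0.41), TIA1 stress change in TIAR RIP (0.53), TIA1 stress change in G3BP1 RIP (-0.39), TIA1 G3BP1 RIP over input unstressed (0.52), TIA1 G3BP1 stress change beyond input (-0.79), TIA1 TIAR against G3BP1 stress change (0.92), HNRNPD stress change in TIAR RIP (0.39), HNRNPD TIAR stress change beyond input (0.50) and ZFP36 stress change in input (0.35) gained a call. With array weights, TIAL1 stress change in G3BP1 RIP (-0.22), TIAL1 G3BP1 stress change beyond input (-0.13) and TIAL1 TIAR against G3BP1 stress change (0.18) turned sign without a call. With median centring, ZFP36 G3BP1 stress change beyond input (0.31) lost the call. With median centring, TIAL1 G3BP1 RIP over input unstressed (-0.37), TIAL1 G3BP1 RIP over input stressed (-0.31), TIA1 stress change in TIAR RIP (0.51), TIA1 TIAR against G3BP1 stress change (0.75), HNRNPD stress change in TIAR RIP (0.30) and ZFP36 stress change in input (0.42) gained a call. With median centring, TIAL1 stress change in G3BP1 RIP (-0.05) and TIAL1 TIAR stress change beyond input (-0.01) turned sign without a call. With quantile normalization, ZFP36 TIAR RIP over input stressed (0.30), ZFP36 G3BP1 stress change beyond input (0.07) and ZFP36 TIAR against G3BP1 stress change (-0.52) lost the call. With quantile normalization, TIAL1 G3BP1 RIP over input unstressed (-0.46), TIAL1 G3BP1 RIP over input stressed (-0.55), TIA1 stress change in input (0.40), TIA1 stress change in TIAR RIP (0.54), TIA1 G3BP1 RIP over input stressed (-0.47), TIA1 G3BP1 stress change beyond input (-0.72), TIA1 TIAR against G3BP1 stress change (0.85), HNRNPD stress change in TIAR RIP (0.30), ZFP36 stress change in input (0.56) and ZFP36 G3BP1 RIP over input stressed (-0.53) gained a call. With quantile normalization, TIAL1 stress change in G3BP1 RIP (-0.09), TIAL1 TIAR stress change beyond input (-0.09), TIAL1 G3BP1 stress change beyond input (-0.09) and TIAL1 TIAR against G3BP1 stress change (0.00) turned sign without a call. With cyclic loess, ZFP36 TIAR RIP over input stressed (0.31), ZFP36 G3BP1 stress change beyond input (0.19) and ZFP36 TIAR against G3BP1 stress change (-0.53) lost the call. With cyclic loess, TIAL1 G3BP1 RIP over input unstressed (-0.45), TIAL1 G3BP1 RIP over input stressed (-0.52), TIA1 stress change in TIAR RIP (0.57), TIA1 G3BP1 RIP over input stressed (-0.39), TIA1 G3BP1 stress change beyond input (-0.63), TIA1 TIAR against G3BP1 stress change (0.83), HNRNPD stress change in TIAR RIP (0.28), ZFP36 stress change in input (0.52) and ZFP36 G3BP1 RIP over input stressed (-0.50) gained a call. With cyclic loess, TIAL1 stress change in G3BP1 RIP (-0.08), TIAL1 TIAR stress change beyond input (-0.04), TIAL1 G3BP1 stress change beyond input (-0.07) and TIAL1 TIAR against G3BP1 stress change (0.04) turned sign without a call. With both arrays of low correlation left out, TIAL1 G3BP1 RIP over input stressed (-0.28), TIA1 stress change in TIAR RIP (0.53), TIA1 G3BP1 RIP over input unstressed (0.51), TIA1 G3BP1 stress change beyond input (-0.82), TIA1 TIAR against G3BP1 stress change (0.92), HNRNPD stress change in TIAR RIP (0.32) and ZFP36 stress change in input (0.35) gained a call. With both arrays of low correlation left out, TIAL1 stress change in G3BP1 RIP (-0.19), TIAL1 TIAR stress change beyond input (-0.04), TIAL1 G3BP1 stress change beyond input (-0.13) and TIAL1 TIAR against G3BP1 stress change (0.08) turned sign without a call. With a fit of the compared groups alone, TIAL1 TIAR over G3BP1 RIP unstressed (-0.48), TIA1 TIAR over G3BP1 RIP unstressed (0.58) and ZFP36 G3BP1 stress change beyond input (0.46) lost the call. With the lowest 50% of transcript clusters left out, HNRNPD stress change in TIAR RIP (0.32) and ZFP36 stress change in input (0.32) gained a call. With the lowest 25% of transcript clusters left out, ZFP36 stress change in input (0.32) gained a call. With an intensity trend with a robust prior, ZFP36 G3BP1 stress change beyond input (0.46) lost the call.

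Leaving out 1 array at a time changed a call or the sign of an uncalled value for TIAL1 stress change in G3BP1 RIP (-0.19 to 0.15), TIAL1 G3BP1 RIP over input unstressed (-0.50 to -0.16), TIAL1 TIAR over G3BP1 RIP unstressed (-0.67 to -0.33), TIAL1 TIAR stress change beyond input (-0.04 to 0.18), TIAL1 TIAR against G3BP1 stress change (-0.26 to 0.08), TIA1 G3BP1 RIP over input unstressed (0.15 to 0.51), TIA1 G3BP1 RIP over input stressed (-0.31 to 0.09), TIA1 TIAR over G3BP1 RIP unstressed (0.36 to 0.72), TIA1 TIAR against G3BP1 stress change (0.57 to 0.92), HNRNPD stress change in TIAR RIP (0.18 to 0.42), HNRNPD G3BP1 RIP over input stressed (-0.10 to 0.03), ZFP36 stress change in input (0.29 to 0.39) and ZFP36 G3BP1 stress change beyond input (0.36 to 0.55).

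Scaling moved the median difference of all transcript clusters by over 0.1 in some comparisons, by 0.17 (TIAR RIP over input unstressed), -0.17 (G3BP1 RIP over input stressed), 0.19 and 0.23 (TIAR over G3BP1 RIP), -0.11 and -0.15 (stress changes beyond input) with median centring, and by 0.12 with quantile normalization (TIAR RIP over input unstressed). Counts over all transcript clusters moved more. Stress changes called in input ran from 1487 (compared groups alone) to 5328 (array weights) beside 3026. Those in the TIAR RIP reached 5485 (array weights) beside 2609, and those in the G3BP1 RIP ran from 866 (compared groups alone) to 6489 (array weights) beside 3189. Stress changes beyond input in the TIAR RIP ran from 15 (without unstressed TIAR RIP replicate 2) to 1472 (array weights) beside 144, and reached 5960 beside 3721 in the G3BP1 RIP (array weights). Differences between the stress changes of the RIPs reached 6349 beside 2994 (array weights). Of the calls, 18.3% were higher with stress in input, and 39.4% after quantile normalization. In the G3BP1 RIP 71.8% were higher, 55.5% after it, 47.8% with array weights, 46.6% without unstressed G3BP1 RIP replicate 3 and 44.8% without both arrays of low correlation, so the shares of transcript clusters set beside counts there depend on that array. Of those called between stressed RIPs, 35.3% were higher in the TIAR RIP, and 54.5% after median centring. The causes were not tested. With 3 arrays a group, a miss of the threshold does not show that values are alike.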
